A study of Mus musculus with 12 samples.

Results

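The genes described here are 10 members of the MHC class II pathway and of the dendritic cell programme, namely H2-Aa, H2-Ab1, H2-Eb1, Cd74, H2-DMa, H2-DMb1, Ciita, Clec9a, Siglech and Itgax. They were taken by symbol from the 28999 genes of the deposited table, and all 10 were found. RNA was measured in mouse bone marrow cells labelled LT-HSCs (long-term haematopoietic stem cells), which renew themselves and supply all blood lineages. The 4 groups, with 3 libraries each, were Trim47-/- mice given 5-fluorouracil (5-FU), wild-type mice given 5-FU, untreated Trim47-/- mice and untreated wild-type mice. 5-FU is a drug that kills dividing cells, and the series title gives 10 days of treatment. Trim47-/- mice carry the label of a homozygous loss of Trim47, a tripartite-motif protein of the ubiquitin ligase type, and no further allele or agent is labelled in any group. The sources used here do not give the strain, age or number of animals, the surface markers of the LT-HSC sort or the deleted part of Trim47. H2-DMa, H2-DMb1, H2-Ab1, H2-Aa and H2-Eb1 lie in that order on chromosome 17 of GRCm38, between bases 34119541 and 34316674, in the MHC. H2-Aa is on the minus strand at 34282744 to 34287823, and the rest of these are on the plus strand. Cd74 lies on chromosome 18, Ciita on chromosome 16, Clec9a on chromosome 6 and Siglech and Itgax on chromosome 7, and all 10 are annotated as protein-coding. The design asks whether these genes differ with genotype, with 5-FU, and in their response to 5-FU between the genotypes.

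MHC class II molecules present peptides from the endosomal pathway to CD4+ T cells. An alpha and a beta chain pair in the endoplasmic reticulum with the invariant chain, whose remnant is later exchanged for peptide by the DM heterodimer, and DO holds DM back. Dendritic cells, B cells and activated macrophages carry the most class II, and class II on the surface has also been described on blood stem and progenitor cells. Transcription of these genes needs the coactivator CIITA, which binds no DNA itself and is recruited by RFX, CREB and NF-Y at the X and Y boxes of the promoters.

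Trim47 RNA, the targeted gene, stood at 10.1, 12.2 and 11.6 CPM (counts scaled to library size) in Trim47-/- libraries after 5-FU, against 38.1, 33.3 and 34.7 CPM in wild-type libraries after 5-FU. In untreated mice it stood at 23.7, 18.9 and 16.6 CPM in Trim47-/- libraries, against 24.6, 23.8 and 24.7 CPM in wild-type libraries. In edgeR's quasi-likelihood test, the log2 difference was -1.64 after 5-FU (adjusted p = 5.50e-07). The same test gave -0.31 in untreated mice (unadjusted p = 0.0222, adjusted p = 0.0632), which did not pass after adjustment over all genes tested. Every untreated Trim47-/- library lay below every untreated wild-type library, although the highest Trim47-/- library (23.7 CPM) lay close to the lowest wild-type library (23.8 CPM). Total counts ran from 13919649 to 20703198 per library. The labels name no separate animals, so p-values speak of the variation among the libraries alone, and that variation may be technical. All 12 LT-HSC markers examined were detected in every group, with Kit at 302.4 ± 7.08, 459.3 ± 3.56, 494.5 ± 3.33 and 466.1 ± 2.70 CPM in Trim47-/- after 5-FU, wild type after 5-FU, untreated Trim47-/- and untreated wild type (SD, n = 3 each). Flt3, which the LT-HSC gate usually leaves out, reached 711.4 ± 8.54 CPM in untreated wild type, and Slamf1, the CD150 marker of LT-HSCs, 1.89 ± 0.46 CPM, so these levels go against the label.

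The promoters of H2-DMb1, H2-Aa and H2-Eb1 are shown because each holds the Y box of class II genes, the site of NF-Y. RefSeq windows of GRCm38.p6, running from 250 bases before to 50 after the annotated start, were found for 7 members. The windows below are on the strand of each gene, 5′ to 3′, at chr17:34152941-34153240 (plus strand) for H2-DMb1, chr17:34287774-34288073 (minus strand) for H2-Aa and chr17:34305617-34305916 (plus strand) for H2-Eb1. Capitals mark 3 motifs. TGATTGG is the Y box. AGCAAC is a part of the X box, which RFX reads. TGACGTCA is the cyclic AMP response element, which CREB reads.
H2-DMb1: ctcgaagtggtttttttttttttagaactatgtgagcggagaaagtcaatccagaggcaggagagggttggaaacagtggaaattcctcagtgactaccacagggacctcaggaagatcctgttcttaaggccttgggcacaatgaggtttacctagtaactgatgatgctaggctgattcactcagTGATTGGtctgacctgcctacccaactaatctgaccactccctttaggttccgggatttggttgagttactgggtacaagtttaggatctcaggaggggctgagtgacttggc
H2-Aa: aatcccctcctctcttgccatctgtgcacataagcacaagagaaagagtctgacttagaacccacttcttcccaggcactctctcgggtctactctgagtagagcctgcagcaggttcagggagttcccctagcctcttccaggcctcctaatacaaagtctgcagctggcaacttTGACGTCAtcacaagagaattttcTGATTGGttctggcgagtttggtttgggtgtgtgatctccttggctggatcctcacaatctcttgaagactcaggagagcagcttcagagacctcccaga
H2-Eb1: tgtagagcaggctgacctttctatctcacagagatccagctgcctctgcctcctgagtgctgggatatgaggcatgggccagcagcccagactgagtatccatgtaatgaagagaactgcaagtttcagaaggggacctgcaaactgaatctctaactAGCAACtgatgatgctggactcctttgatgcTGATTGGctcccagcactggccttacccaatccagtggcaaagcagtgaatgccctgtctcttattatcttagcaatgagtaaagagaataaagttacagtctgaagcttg
TGATTGG began 63 bases upstream of the start in H2-DMb1, 50 in H2-Aa and 61 in H2-Eb1. Searched on both strands, these 7 bases occurred in 7.82% of all 32841 RefSeq windows. In H2-Eb1, AGCAAC stood 92 bases upstream of the start, on the far side of the Y box, and it occurred in 14.8% of all windows. H2-Aa held TGACGTCA 74 bases upstream, which 1.79% of windows share. AGCAAC also occurred in the windows of Clec9a, 160 bases upstream, and of Itgax, 135 bases upstream and, on the opposite strand, 39 to 44 bases downstream of the start. The 3 motifs share no letters of a hit with one another in the windows printed, and a match is a description of the letters, not of a bound site.

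Per transcript length, Cd74 was the most abundant member in every group. In the authors' FPKM, Cd74, the invariant chain, averaged 15.4 ± 1.32 in Trim47-/- after 5-FU, 13.7 ± 0.298 in wild type after 5-FU, 61.9 ± 11.8 in untreated Trim47-/- and 64.6 ± 0.678 in untreated wild type (SD, n = 3 each). Below it in untreated wild type came H2-Ab1 at 18.6 ± 3.56 FPKM, H2-DMb1 at 14.8 FPKM, H2-Aa at 13.5 FPKM, H2-DMa at 9.84 FPKM and H2-Eb1 at 9.22 FPKM. The ranges of H2-Ab1 (15.7 to 22.6 FPKM) and H2-DMb1 (14.5 to 15.3 FPKM) did not overlap, whereas that of H2-Aa (13.01 to 14.1 FPKM) lay just below that of H2-DMb1. H2-DMa, at 9.45 to 10.2 FPKM, overlapped H2-Eb1, at 8.87 to 9.53 FPKM. The dendritic cell integrin Itgax stood at 2.80 FPKM, and Clec9a, Siglech and Ciita at 0.478, 0.406 and 0.254 FPKM.

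After 5-FU that order changed. In wild-type libraries given 5-FU, H2-DMa stood at 13.2 FPKM, and its range overlapped those of Cd74 at 13.7 FPKM and of H2-DMb1 at 12.4 FPKM, with H2-Ab1 lower at 10.2 FPKM. H2-Aa, at 2.58 FPKM, and H2-Eb1, at 1.76 FPKM, lay below Itgax at 3.33 FPKM. In Trim47-/- libraries given 5-FU, H2-DMa stood at 10.6 FPKM, H2-DMb1 at 10.3 FPKM and H2-Ab1 at 9.05 FPKM, with H2-Aa at 2.81 FPKM, H2-Eb1 at 1.84 FPKM and Itgax at 3.20 FPKM. There the ranges of H2-DMa and H2-DMb1 overlapped, as did those of H2-Aa and Itgax.

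**Figure D1:**
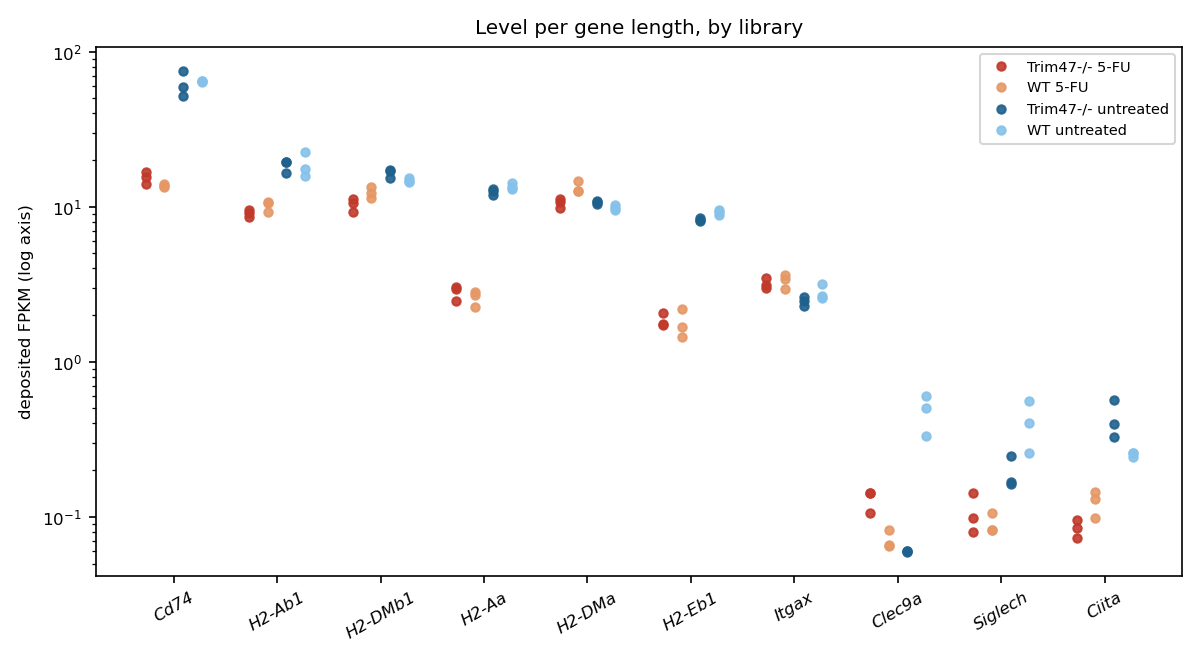
Deposited FPKM of the 10 genes in each library, on a log scale, with points for the 3 libraries of each group. Cd74 is highest in untreated libraries at 52.0 to 74.9 FPKM, and H2-Aa, H2-Eb1 and Cd74 separate the 5-FU libraries from the untreated ones.

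The chains of class II and the invariant chain were lower after 5-FU in both genotypes. H2-Aa, the alpha chain of I-A, fell 5.62-fold in wild type and 4.46-fold in Trim47-/-, and H2-Eb1 and Cd74 fell by like amounts, whereas H2-Ab1 fell about 1.95-fold and 2.04-fold. Over the 10 genes, 8 fell, 1 rose and 1 did not pass after 5-FU in wild type, against 25.4% of all 16319 genes tested that fell and 25.2% that rose. In Trim47-/-, 6 fell, 2 rose and 2 did not pass, against 30.8% that fell and 29.6% that rose. Genes called in either direction made up 50.6% in wild type and 60.5% in Trim47-/-. At least 2-fold, 6 of the 10 fell and none rose in wild type, against 7.06% and 2.86% of all genes, and 5 fell and 1 rose in Trim47-/-, against 9.35% and 4.03%. The median log2 change of the 10 was -1.69 in wild type and -0.94 in Trim47-/-, beside 0.012 and -0.005 over all genes tested. The wild-type counts and median include Clec9a, which passed the filter on low counts through the untreated wild-type libraries alone. Its fall from that group was tied to its being tested, so it adds no support to them.

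H2-Aa stood at 12.6, 10.2 and 12.1 CPM in wild-type libraries after 5-FU, against 63.1, 65.0 and 68.1 CPM in untreated wild-type libraries. In Trim47-/- it stood at 14.4, 11.7 and 14.1 CPM after 5-FU, against 57.0, 60.2 and 61.5 CPM in untreated libraries. Every 5-FU library lay below every untreated library, in both genotypes. The log2 change was -2.49 (SE 0.0887, adjusted p = 1.19e-09) in wild type and -2.16 (SE 0.0878, adjusted p = 2.78e-09) in Trim47-/-, in edgeR's quasi-likelihood test.

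H2-Eb1, the beta chain of I-E, moved by nearly the same factor. Its levels were 7.33, 4.81 and 5.57 CPM in wild type after 5-FU, against 33.3, 31.9 and 34.1 CPM in untreated wild type. In Trim47-/- they were 6.07, 6.16 and 7.25 CPM after 5-FU, against 29.0, 28.7 and 29.8 CPM in untreated libraries. No 5-FU library came near an untreated library, and the log2 changes were -2.49 (SE 0.12, adjusted p = 1.53e-08) in wild type and -2.17 (SE 0.119, adjusted p = 3.11e-08) in Trim47-/-. The alpha chain that would pair with it, H2-Ea, had at most a few reads in any library and was at 0 in both wild-type groups.

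Cd74 stood at 39.5, 38.7 and 40.5 CPM in wild type after 5-FU, against 203, 202 and 198 CPM in untreated wild type. In Trim47-/- it stood at 47.3, 51.1 and 42.9 CPM after 5-FU, against 159.7, 230.4 and 179.7 CPM in untreated libraries. The groups did not overlap, although the untreated Trim47-/- libraries spread more widely than the others. Cd74 fell by 2.34 on the log2 scale in wild type (SE 0.114, adjusted p = 1.63e-08) and by 2.01 in Trim47-/- (SE 0.113, adjusted p = 3.54e-08).

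H2-Ab1, the beta chain of I-A, was the most retained chain after 5-FU. It stood at 47.8, 54.7 and 55.7 CPM in wild type after 5-FU, against 87.1, 96.9 and 125 CPM in untreated wild type. In Trim47-/- it stood at 46.4, 49.4 and 51.9 CPM after 5-FU, against 89.9, 107 and 105 CPM in untreated libraries. The groups did not overlap, and the log2 changes were -0.96 (SE 0.12, adjusted p = 4.31e-05) in wild type and -1.03 (SE 0.12, adjusted p = 1.72e-05) in Trim47-/-.

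**Figure D2:**
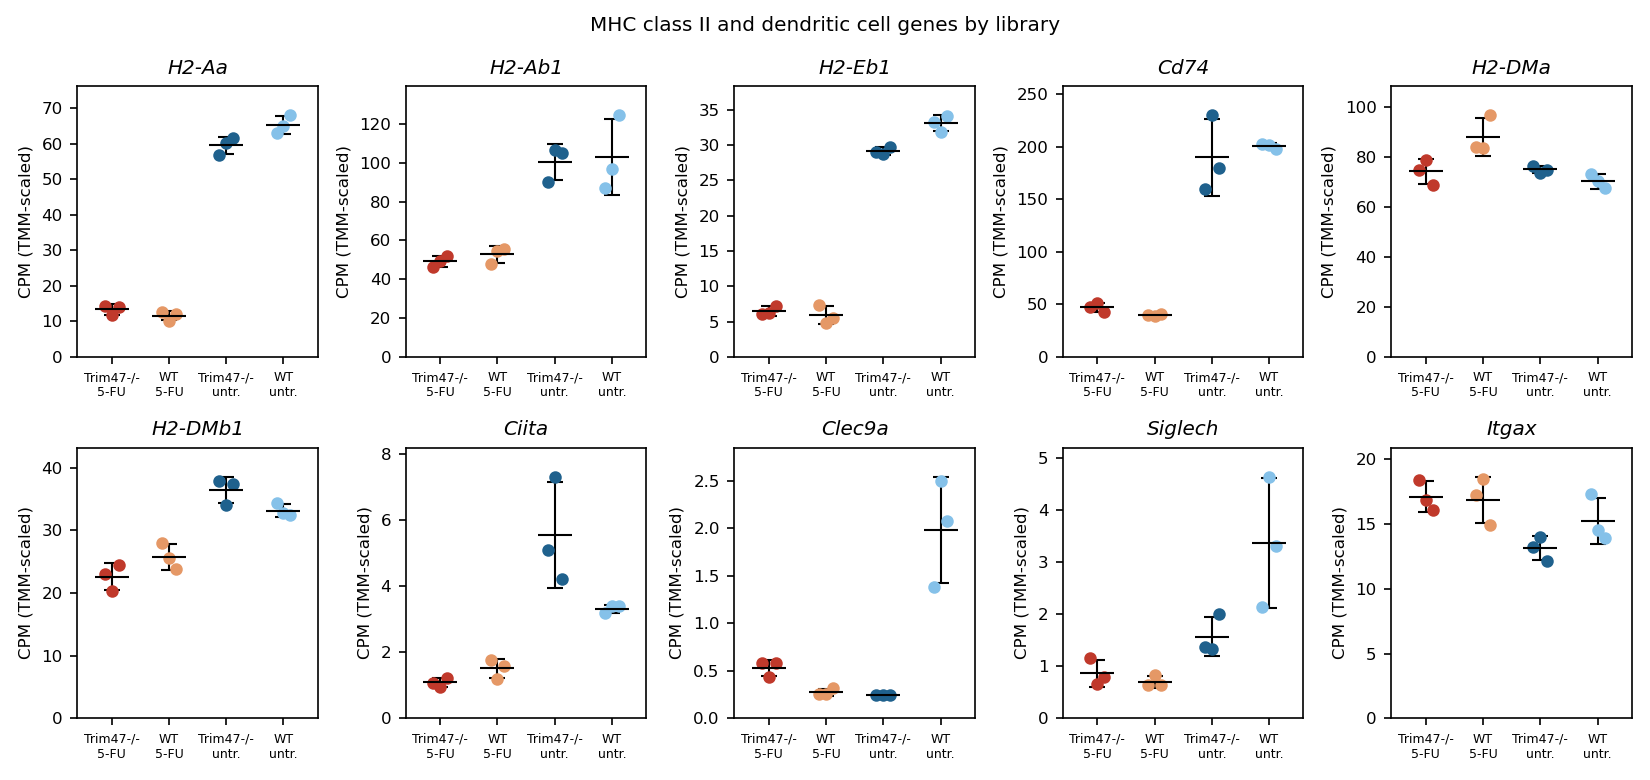
Level of each of the 10 genes in each library in CPM scaled by TMM, with a long line for the mean of the 3 libraries of a group and whiskers for the SD. H2-Aa lies between 10.2 and 14.4 CPM in the 6 libraries given 5-FU and between 57.0 and 68.1 CPM in the 6 untreated libraries.

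The unequal change of the I-A chains showed in their ratio. In FPKM, H2-Ab1 over H2-Aa was 3.31, 4.70 and 4.03 in wild type after 5-FU, against 1.21, 1.30 and 1.60 in untreated wild type. In Trim47-/- it was 2.82, 3.70 and 3.22 after 5-FU, against 1.38, 1.55 and 1.49 in untreated libraries. The ratio of H2-Eb1 to H2-Aa, by contrast, averaged 0.658 ± 0.078, 0.680 ± 0.089, 0.660 ± 0.022 and 0.683 ± 0.027 in Trim47-/- after 5-FU, wild type after 5-FU, untreated Trim47-/- and untreated wild type (SD, n = 3 each). Cd74 over H2-Aa was 5.56 ± 1.1, 5.33 ± 0.54, 4.95 ± 0.87 and 4.79 ± 0.24 in the same groups, within the spread between libraries. These ratios are given without a test.

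**Figure D3:**
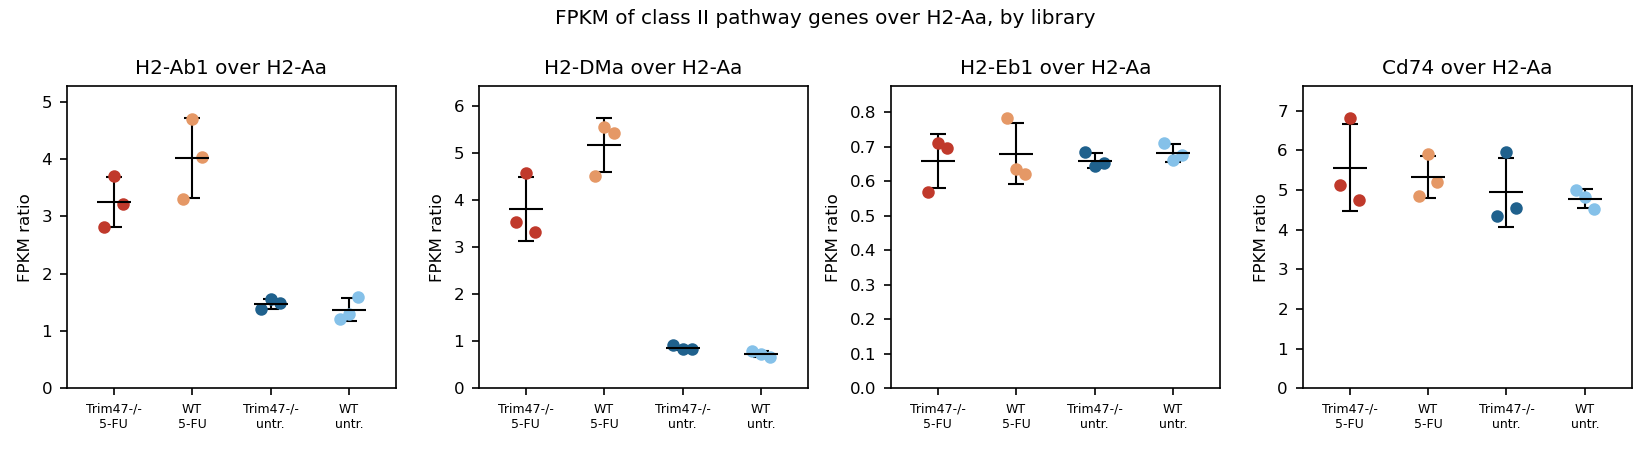
Ratio of FPKM of H2-Ab1, H2-DMa, H2-Eb1 and Cd74 to that of H2-Aa in each library, with a long line for the mean of the 3 libraries of a group and whiskers for the SD. H2-Ab1 over H2-Aa runs from 2.82 to 4.70 after 5-FU and from 1.21 to 1.60 in untreated libraries, while H2-Eb1 over H2-Aa stays between 0.569 and 0.782 in all 12.

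The chains of DM moved less than H2-Aa, and not alike. H2-DMa, the alpha chain of the peptide exchange factor, stood at 83.7, 83.2 and 96.6 CPM in wild type after 5-FU, against 73.2, 70.1 and 67.2 CPM in untreated wild type. In Trim47-/- it stood at 74.8, 78.6 and 68.8 CPM after 5-FU, against 76.3, 73.4 and 74.8 CPM in untreated libraries. It rose in wild type, by log2 0.32 (SE 0.0635, adjusted p = 0.00124), and did not pass in Trim47-/- at -0.02 (95% interval -0.154 to 0.124, adjusted p = 0.852). Of its exonic bases, 10.4% are shared with Brd2 on the opposite strand, and Brd2 changed by -0.50 in wild type and -0.31 in Trim47-/-.

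H2-DMb1, the beta chain of DM, stood at 27.9, 25.6 and 23.9 CPM in wild type after 5-FU, against 34.4, 32.7 and 32.4 CPM in untreated wild type. Trim47-/- libraries held 23.04, 20.4 and 24.5 CPM after 5-FU, against 37.9, 34.1 and 37.5 CPM in untreated libraries. It fell in both genotypes without overlap, by 0.36 on the log2 scale in wild type (SE 0.0779, adjusted p = 0.00225) and by 0.69 in Trim47-/- (SE 0.078, adjusted p = 1.34e-05). Its near copy H2-DMb2 holds 22.7% of its 50-base words, so reads may be divided between the pair. H2-DMb2 stood at 4.92 ± 0.889, 5.19 ± 0.793, 7.27 ± 0.655 and 4.89 ± 0.745 CPM in Trim47-/- after 5-FU, wild type after 5-FU, untreated Trim47-/- and untreated wild type.

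Both chains of DO, the inhibitor of DM, fell after 5-FU in Trim47-/-. H2-Oa, the alpha chain, stood at 13.001, 11.95 and 11.6 CPM in Trim47-/- after 5-FU, against 17.4, 14.2 and 15.7 CPM in untreated Trim47-/-, a log2 change of -0.37 (adjusted p = 0.00602). In wild type it rose by log2 0.36 (adjusted p = 0.00985), with 14.6, 16.8 and 14.4 CPM after 5-FU against 11.1, 11.6 and 13.1 CPM in untreated libraries. H2-Ob, the beta chain, stood at 45.7, 49.5 and 51.9 CPM in Trim47-/- after 5-FU, against 88.9, 86.9 and 99.1 CPM in untreated Trim47-/-, a log2 change of -0.90 (adjusted p = 7.49e-05). Its wild-type libraries held 73.4, 73.2 and 49.98 CPM after 5-FU against 74.3, 77.5 and 67.5 CPM in untreated libraries, and the change of -0.16 did not pass (adjusted p = 0.324). Of the 4 other class II chain genes that passed the filter on low counts, 4 fell in Trim47-/- and 1 rose and 1 fell in wild type, with a median log2 change of -0.73 and -0.04. Over all genes tested, 30.8% fell in Trim47-/-, and 25.2% rose and 25.4% fell in wild type.

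Ciita RNA was scarce and fell after 5-FU in both genotypes. It stood at 1.77, 1.202 and 1.58 CPM in wild type after 5-FU, against 3.18, 3.40 and 3.39 CPM in untreated wild type. In Trim47-/- it stood at 1.08, 0.942 and 1.23 CPM after 5-FU, against 5.10, 7.32 and 4.20 CPM in untreated libraries. The groups did not overlap, and the log2 changes were -1.13 (SE 0.238, adjusted p = 0.00206) in wild type and -2.34 (SE 0.237, adjusted p = 5.30e-06) in Trim47-/-. The summed counts were 45 reads in Trim47-/- after 5-FU and 72 reads in wild type after 5-FU, against 339 and 144 reads in the untreated groups of the same genotypes. Dexi, which shares 3.45% of the exonic bases of Ciita on the opposite strand, changed by -0.95 in Trim47-/- (called) and by -0.01 in wild type (not called).

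Among 11 genes that drive class II transcription, 1 fell and 3 rose after 5-FU in wild type, with a median log2 change of 0.13, and 6 fell and 2 rose in Trim47-/-, with a median of -0.18. Over all genes tested, 25.4% fell and 25.2% rose in wild type, and 30.8% fell and 29.6% rose in Trim47-/-, so the wild-type counts lie near the background. Irf1, the interferon-induced activator of Ciita, fell in both genotypes, by 0.81 on the log2 scale in wild type (adjusted p = 6.54e-08) and by 0.89 in Trim47-/- (adjusted p = 2.03e-08). Rfxank, a subunit of RFX, rose by log2 0.41 in wild type (adjusted p = 9.71e-05) and fell by 0.52 in Trim47-/- (adjusted p = 1.12e-05). Irf2, a related factor that also binds a Ciita promoter, fell by 0.95 in Trim47-/- (adjusted p = 1.15e-07).

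**Figure D4:**
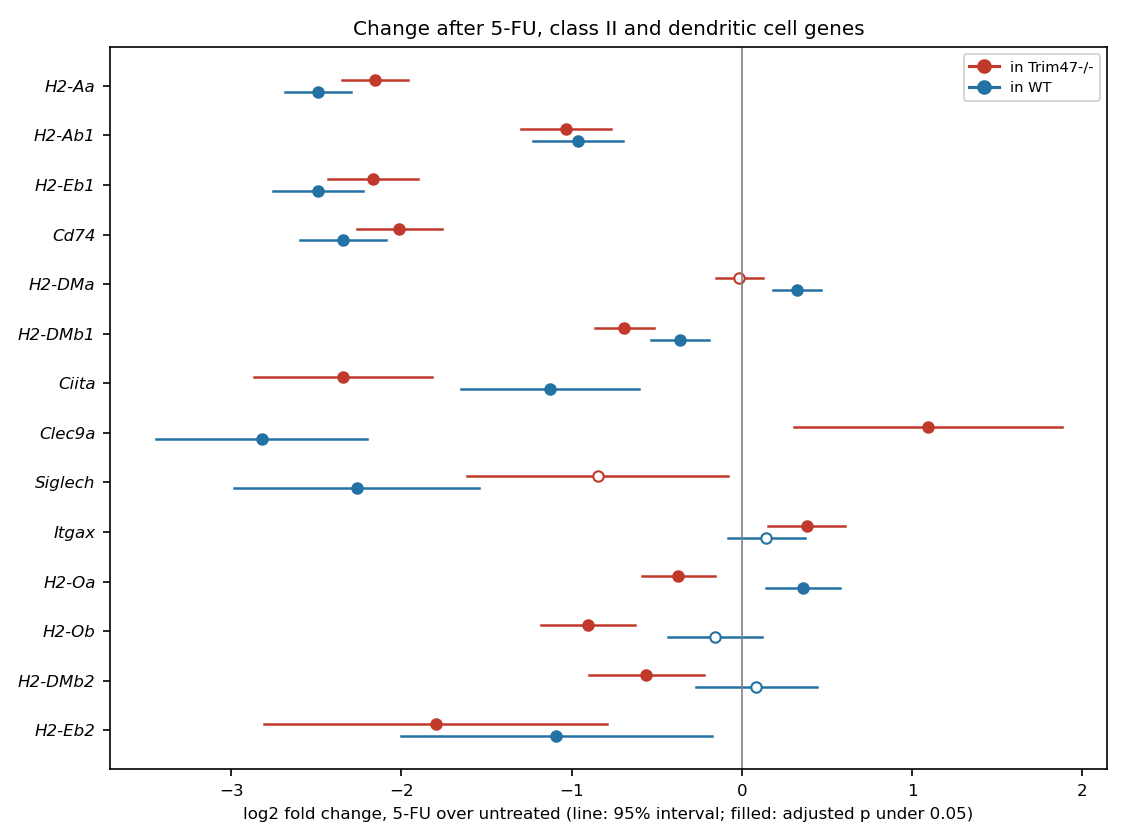
Log2 change after 5-FU of the 10 genes and of H2-Oa, H2-Ob, H2-DMb2 and H2-Eb2 in Trim47-/- and wild type, with 95% intervals from edgeR and filled points at an adjusted p under 0.05. H2-Aa, H2-Eb1 and Cd74 lie between -2.01 and -2.49 in both genotypes, and Clec9a lies at 1.09 in Trim47-/- and at -2.82 in wild type. The intervals of Clec9a are narrower than the counting error of its few reads allows.

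Fewer of the 10 genes were called between genotypes than between treatments. In untreated mice, 1 of the 10 genes was higher and 2 were lower in Trim47-/- than in wild type, against 17.6% of all genes tested that were higher and 15.4% that were lower (33% in either direction). The 2 lower genes, Clec9a and Siglech, differed at least 2-fold, as 3.01% of all genes did (0.741% higher), and Ciita did not. Clec9a was tested through its level in untreated wild type alone, so its place in these counts is no independent result. After 5-FU, none was higher and 1 was lower, against 27.2% higher and 27.6% lower (54.7% in either direction), so a smaller share of the 10 was called than of all genes. None was higher at an unadjusted p under 0.05 either, and DESeq2 called none higher. None of the 10 differed at least 2-fold there, against 3.38% higher and 5.41% lower over all genes. The median log2 difference of the 10 was -0.11 in untreated mice and 0.08 after 5-FU, beside 0.028 and 0 over all genes.

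Ciita was the member that was higher in untreated Trim47-/- libraries. The levels given above, 4.20 to 7.32 CPM in untreated Trim47-/- against 3.18 to 3.40 CPM in untreated wild type, did not overlap, and the log2 difference was 0.74 (SE 0.193, adjusted p = 0.0126). Dexi, the overlapping neighbour, was also higher, by log2 0.34. After 5-FU the difference in Ciita was -0.48 and did not pass (adjusted p = 0.192), with 0.942 to 1.23 CPM in Trim47-/- and 1.202 to 1.77 CPM in wild type.

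The chains themselves did not pass between untreated genotypes. The log2 difference was -0.13 for H2-Aa (95% interval -0.309 to 0.039, adjusted p = 0.224), -0.18 for H2-Eb1 (adjusted p = 0.209), -0.03 for H2-Ab1 (adjusted p = 0.865) and -0.08 for Cd74 (95% interval -0.312 to 0.151, adjusted p = 0.607). H2-Aa and H2-Eb1 were lower in every untreated Trim47-/- library than in any untreated wild-type library, while H2-Ab1 and Cd74 overlapped. Fitted with only the 6 untreated libraries, H2-Aa (-0.16, adjusted p = 0.0429) and H2-Eb1 (-0.21, adjusted p = 0.0183) passed. For Cd74 the value rests on untreated Trim47-/- replicate 2, the highest of all 12 libraries: without it the difference was -0.24 and passed (adjusted p = 0.0211).

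After 5-FU, H2-Aa gave a log2 difference of 0.20 (adjusted p = 0.0928) and H2-Eb1 of 0.14 (adjusted p = 0.406), and neither passed. H2-Aa passed without Trim47-/- 5-FU replicate 2 (0.29, adjusted p = 0.0183), and H2-Eb1 without wild-type 5-FU replicate 1 (0.32, adjusted p = 0.0454). Cd74 was higher in each Trim47-/- library after 5-FU, at 42.9 to 51.1 CPM, than in any wild-type library, at 38.7 to 40.5 CPM, but the log2 difference of 0.25 did not pass (95% interval -0.001 to 0.504, adjusted p = 0.0853). It passed without untreated Trim47-/- replicate 1 (adjusted p = 0.0326) or replicate 2 (adjusted p = 0.00629), neither of which enters this difference other than through the shared estimate of spread. H2-DMa, at 68.8 to 78.6 CPM in Trim47-/- and 83.2 to 96.6 CPM in wild type, was the member that was lower, by log2 -0.25 (SE 0.0635, adjusted p = 0.00632). H2-DMb1 gave -0.19 and did not pass (adjusted p = 0.0664), and it passed without replicate 3 of Trim47-/- (adjusted p = 0.0324) or of wild type (adjusted p = 0.0256) after 5-FU. Of the DO chains, H2-Oa was lower in Trim47-/- after 5-FU by log2 -0.33 (adjusted p = 0.0155) and higher in untreated Trim47-/- by 0.41 (adjusted p = 0.00773).

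**Figure D5:**
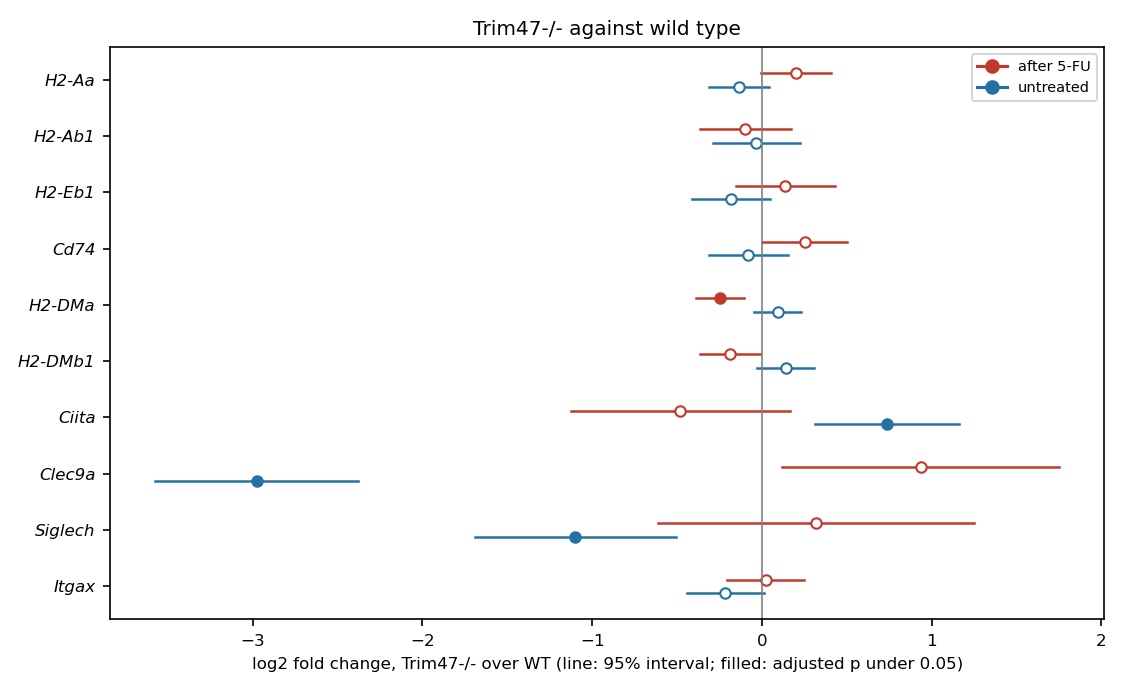
Log2 difference of Trim47-/- against wild type for the 10 genes after 5-FU and in untreated mice, with 95% intervals from edgeR and filled points at an adjusted p under 0.05. Clec9a at -2.98 and Siglech at -1.10 are lower and Ciita at 0.74 is higher in untreated Trim47-/-, and most others lie close to 0. Both intervals of Clec9a are narrower than the counting error of its few reads allows. The interval of Clec9a after 5-FU is also narrower than its p-value allows.

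Clec9a and Siglech, genes of dendritic cell subsets, were lower in untreated Trim47-/- than in untreated wild type and fell after 5-FU in wild type. Clec9a, the receptor for dead cells on type 1 conventional dendritic cells, stood at 0.245, 0.245 and 0.244 CPM in untreated Trim47-/- libraries, against 1.38, 2.49 and 2.07 CPM in untreated wild-type libraries. These levels are 5 reads in each Trim47-/- library, against 20, 36 and 30 reads in wild type, and the groups did not overlap. The log2 difference was -2.98 (SE 0.271, adjusted p = 9.84e-06). This SE and the others given for Clec9a are smaller than the counting error of so few reads, so they overstate its precision. Clec9a passed the filter on low counts, at 0.667 CPM, in the 3 untreated wild-type libraries alone, so a difference from that group was a condition of its being tested, and its p-values against that group and in the interaction are given as a description.

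After 5-FU, Clec9a stood at 0.578, 0.435 and 0.580 CPM in Trim47-/- libraries, against 0.253, 0.253 and 0.316 CPM in wild-type libraries. These are 22 reads over the 3 Trim47-/- libraries and 13 over the 3 wild-type libraries, and the log2 difference of 0.94 did not pass (adjusted p = 0.0898). Set against untreated libraries of the same genotype, Clec9a rose in Trim47-/- by 1.09 (SE 0.358, adjusted p = 0.0339) and fell in wild type by 2.82 (SE 0.283, adjusted p = 7.66e-06), the fall being measured from the group that carried it over the filter. The rise in Trim47-/- was lost without any 1 of the untreated Trim47-/- libraries (adjusted p from 0.0614 to 0.0622) and without replicate 1 or 3 of Trim47-/- after 5-FU (0.0883 and 0.0889), and DESeq2 did not call it (0.114).

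Clec1b, a platelet receptor whose gene neighbours Clec9a, shares 5.59% of the exonic bases of Clec9a on the same strand. Clec1b stood at 0.147, 0 and 0.0489 CPM in untreated Trim47-/- libraries, against 0.415, 1.04 and 1.31 CPM in untreated wild-type libraries, and its log2 difference of -3.67 was called. Reads of the pair may be divided between them, and the part of Clec1b in the values of Clec9a was not tested. In bulk RNA, fewer cells that express a gene and less of its RNA per cell cannot be told apart.

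Siglech, a lectin of plasmacytoid dendritic cells, stood at 1.37, 1.33 and 2.004 CPM in untreated Trim47-/- libraries, against 2.14, 4.64 and 3.32 CPM in untreated wild-type libraries. The groups did not overlap, although the highest Trim47-/- library lay close to the lowest of wild type, and the log2 difference was -1.10 (SE 0.27, adjusted p = 0.00894). After 5-FU it stood at 1.16, 0.652 and 0.798 CPM in Trim47-/- libraries, against 0.632, 0.822 and 0.633 CPM in wild-type libraries. These overlapped, and the difference of 0.32 did not pass (adjusted p = 0.553). Siglech fell after 5-FU in wild type, by 2.26 on the log2 scale (SE 0.327, adjusted p = 0.000139), while in Trim47-/- the change of -0.85 did not pass (adjusted p = 0.0549, and 0.0224 to 0.178 over the alternatives tried).

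Itgax, the CD11c chain of an integrin found on dendritic cells and some macrophages, stood at 18.4, 16.9 and 16.1 CPM in Trim47-/- after 5-FU, against 13.2, 14.04 and 12.2 CPM in untreated Trim47-/-, a rise of log2 0.38 (SE 0.104, adjusted p = 0.00757) with no overlap. In wild type it stood at 17.2, 18.5 and 14.9 CPM after 5-FU, against 17.3, 14.6 and 13.96 CPM in untreated libraries, which overlapped, and the change of 0.14 did not pass (adjusted p = 0.275). Between genotypes it did not pass in untreated mice at -0.22 (adjusted p = 0.14) or after 5-FU at 0.02 (adjusted p = 0.88). Itgad, a related integrin gene that holds 8.02% of the 50-base words of Itgax, was called in no comparison.

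Whether the response to 5-FU itself differed between genotypes was tested as an interaction, the log2 change in Trim47-/- minus that in wild type. Of the 10 genes, 3 had a higher and 3 a lower response in Trim47-/-, against 26.4% and 28.5% of all genes tested (54.9% in either direction). By at least 2-fold, 2 were higher and 1 was lower, against 7.3% and 9.69%. Ciita fell further in Trim47-/-, with an interaction of -1.22 (adjusted p = 0.0119), as did H2-DMb1 at -0.33 (adjusted p = 0.0258). H2-DMa, which rose in wild type, gave -0.34 (adjusted p = 0.00732). Positive values were found for Clec9a at 3.91 (adjusted p = 2.94e-05), Siglech at 1.42 (adjusted p = 0.0328) and H2-Aa at 0.34 (adjusted p = 0.037), whose fall was smaller in Trim47-/-.

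H2-Eb1 at 0.32 (adjusted p = 0.13) and Cd74 at 0.33 (adjusted p = 0.0925) had interactions of nearly the same size as H2-Aa and did not pass, and H2-Ab1 gave -0.07 (adjusted p = 0.765). The calls for Ciita and H2-DMa held without each of the 12 libraries in turn, with adjusted p up to 0.0363 and 0.0214 over all alternatives. Clec9a was tested through its level in untreated wild type, so its call, and its place in the counts of higher interactions, is no independent result. The calls for H2-Aa and Siglech were lost with no filter and when any of several libraries was left out, with adjusted p up to 0.119 and 0.112. The call for H2-DMb1 was lost when any of several libraries was left out, with adjusted p up to 0.0617. The untreated and 5-FU groups enter the genotype, drug and interaction comparisons together, so these are not separate measurements.

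Other genes of antigen presentation were counted in the same way. Among 10 genes of peptide supply, turnover and costimulation, 6 were higher and 1 was lower in Trim47-/- than in wild type after 5-FU, with a median log2 difference of 0.39, whereas in untreated mice none was higher and 5 were lower, with a median of -0.36. Over all genes tested, 27.2% were higher and 27.6% lower after 5-FU, and 17.6% and 15.4% in untreated mice. Cd83, a surface protein that stabilises class II, stood at 29.5, 31.3 and 29.0 CPM in Trim47-/- after 5-FU, against 8.08, 7.91 and 7.91 CPM in wild type after 5-FU. In untreated mice it stood at 90.6, 89.2 and 87.5 CPM in Trim47-/-, against 212, 209 and 208 CPM in wild type. The log2 differences were 1.91 after 5-FU (adjusted p = 1.43e-11) and -1.23 in untreated mice (adjusted p = 5.40e-10). Ctss, the protease that trims the invariant chain, was higher in Trim47-/- after 5-FU at 75.4 ± 0.443 CPM against 48.6 ± 3.07 CPM in wild type (log2 0.63, adjusted p = 1.21e-06), and so was the costimulatory ligand Cd86 (log2 1.11, adjusted p = 3.68e-06).

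Of 12 class I presentation genes, 6 were higher and none lower in Trim47-/- after 5-FU (median log2 difference 0.15). Over all genes tested, 27.2% were higher and 27.6% lower there (54.7% in either direction). In untreated mice, 3 of these 12 were lower and none higher (median -0.05). Over all genes tested, 15.4% were lower and 17.6% higher there (33% in either direction). The class I chain H2-K1 fell after 5-FU by 0.43 on the log2 scale in wild type (adjusted p = 1.18e-08) and by 0.38 in Trim47-/- (adjusted p = 2.54e-08) beside changes of -2.49 and -2.16 for H2-Aa. Nlrc5, the class I counterpart of Ciita, fell by 0.52 in wild type (adjusted p = 5.43e-07) and was lower in untreated Trim47-/- by log2 -0.27 (adjusted p = 0.000282), where Ciita was higher.

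Markers of cells that carry class II were measured beside the members. The summed level of 12 B cell markers ran from 175.9 to 183.3 CPM in Trim47-/- after 5-FU, 193.4 to 204.4 CPM in wild type after 5-FU, 290.1 to 304.5 CPM in untreated Trim47-/- and 307.1 to 315.7 CPM in untreated wild type. Most of that sum was Ighm, at 156.6 ± 4.35, 168.8 ± 7.54, 254.1 ± 6.97 and 269.2 ± 2.89 CPM in the same groups. The sum therefore says little of the other markers. Of the 10 B cell markers tested, 8 fell after 5-FU in each genotype, while 1 rose in wild type and none rose in Trim47-/-. Over all genes tested, 25.4% fell and 25.2% rose in wild type, and 30.8% fell and 29.6% rose in Trim47-/-. Cd79a, a subunit of the B cell receptor, fell by 2.45 on the log2 scale in Trim47-/- (adjusted p = 2.59e-06) and by 1.47 in wild type (adjusted p = 7.65e-05). Pax5, which defines the B lineage, stood at 0, 0.0724 and 0.145 CPM in Trim47-/- after 5-FU and at 1.23 to 2.20 CPM in untreated Trim47-/-, and Ms4a1 was at 0 in all Trim47-/- libraries after 5-FU. In wild type after 5-FU, Pax5 stood at 0.506 to 0.632 CPM, so no library given 5-FU reached the filter on low counts at 0.667 CPM. Pax5 was tested through its untreated libraries, and Ebf1 also needed its untreated libraries to pass. Lower levels of these genes after 5-FU were tied to their being tested and add no support to the counts of B cell markers. Most of the other B cell markers tested moved the same way as the class II chains after 5-FU, and their part in the fall was not tested.

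Monocyte and macrophage markers moved one way after 5-FU in Trim47-/- and mostly the other way in wild type. Of the 10 tested, 8 rose and 1 fell in Trim47-/-, while 1 rose and 6 fell in wild type. Over all genes tested, 29.6% rose and 30.8% fell in Trim47-/-, and 25.2% rose and 25.4% fell in wild type. The sum of 13 such markers ran from 794.1 to 830.1 CPM in Trim47-/- after 5-FU, 397.3 to 406.8 CPM in wild type after 5-FU, 308.1 to 331.3 CPM in untreated Trim47-/- and 479.4 to 498 CPM in untreated wild type. Of the 10 tested, 9 were higher in Trim47-/- than in wild type after 5-FU, beside 27.2% of all genes tested. H2-Aa, H2-Ab1, H2-Eb1 and Cd74 did not pass there with all libraries. The macrophage receptor Csf1r was higher by log2 1.23 after 5-FU (adjusted p = 1.71e-09) and lower in untreated Trim47-/- by log2 -0.67 (adjusted p = 6.87e-07). The 12 LT-HSC markers summed to 694.8 to 770.6 CPM in Trim47-/- after 5-FU, against 1138 to 1292 CPM in wild type after 5-FU. Of these 12, 11 were lower, beside 27.6% of all genes tested. The part of these shifts in the levels of the 10 genes was not tested.

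Of 6 type 1 dendritic cell markers tested, 3 fell and none rose in wild type after 5-FU, and 1 rose and 1 fell in Trim47-/-. These 6 include Clec9a, with the limit given above. Of 5 type 2 markers, 2 rose and 1 fell in each genotype. Of 6 markers common to dendritic cells, 4 fell and none rose in wild type, and 1 rose and 2 fell in Trim47-/-. Over all genes tested, 25.2% rose and 25.4% fell in wild type, and 29.6% rose and 30.8% fell in Trim47-/-. Some of these markers were scarce. Xcr1, the chemokine receptor of type 1 conventional dendritic cells, was at 0 in all Trim47-/- libraries after 5-FU and at 0.346 to 0.622 CPM in untreated wild type. Cd209a, a lectin of type 2 cells, was at 0 in all 6 libraries given 5-FU and at 0.622 to 1.11 CPM in untreated wild type. Counts of 0 allow up to 3 reads per library, for counting error only. The 9 type 1 markers summed to 556.1 to 577.5 CPM in Trim47-/- after 5-FU, 482.9 to 497.8 CPM in wild type after 5-FU, 528.9 to 593.2 CPM in untreated Trim47-/- and 602.9 to 667.2 CPM in untreated wild type. Most of that sum was Wdfy4, at 451.7 ± 9.52, 425.2 ± 6.90, 459.4 ± 6.67 and 468.7 ± 7.73 CPM in the same groups, and Irf8, so it says little of the other 7 markers.

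The transcription factor Irf8, needed for type 1 and plasmacytoid dendritic cells and also active in progenitors, was lower in untreated Trim47-/- by log2 -0.57 (adjusted p = 0.0481) and higher after 5-FU by 0.999 (adjusted p = 0.00164). The 10 plasmacytoid markers summed to 460.9 to 482.2 CPM in Trim47-/- after 5-FU, 399.7 to 451.9 CPM in wild type after 5-FU, 438.3 to 531.8 CPM in untreated Trim47-/- and 491.6 to 599.1 CPM in untreated wild type. Of 9 tested, 6 were lower in untreated Trim47-/-, Siglech among them, beside 15.4% of all genes. After 5-FU, 4 fell and 2 rose in Trim47-/-, namely Bst2 (log2 0.78) and Irf7 (0.97), beside 30.8% and 29.6% of all genes, and 8 fell and none rose in wild type, beside 25.4% and 25.2%. Bst2, a surface protein of plasmacytoid cells that interferon also induces, was lower in untreated Trim47-/- by log2 -0.53 (adjusted p = 4.47e-06) and higher after 5-FU by 0.88 (adjusted p = 2.76e-08). Whether the cells behind Clec9a and Siglech changed in number was not tested.

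Of 10359 genes ranked by likeness to the mean of H2-Aa, H2-Ab1, H2-Eb1 and Cd74 over the 12 libraries, the nearest was Nfkbid, which encodes a nuclear protein of the IkB family, with a Pearson r of 0.997 on log2(CPM + 1). Nfkbid stood at 221.0 ± 1.29, 202.4 ± 1.74, 502 ± 5.23 and 511.1 ± 2.83 CPM in Trim47-/- after 5-FU, wild type after 5-FU, untreated Trim47-/- and untreated wild type (SD, n = 3 each). Next came the phosphatase gene Dusp5 (0.995), Pdzd4 (0.992), the cyclin gene Ccnt1 (0.992), the class I-like gene H2-Q4 (0.991) and Bcr (0.99). The libraries share groups, depth and the drug, 370 genes reached an r over 0.9, and r is given as a description.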

How the data were processed

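RNA-seq libraries of 12 samples in 4 groups were analysed. The sample titles give the groups and replicate numbers. Libraries were stranded, paired-end and selected for poly-A, per the labels' protocols. The deposited table gives a raw count per gene and library, with the authors' FPKM beside it. The submitters' processing notes list edgeR, StringTie, HISAT2 and CASAVA 1.8, and the build GRCm38, in no stated order or role. The sources used here do not give the counting tool, its use of strand or its gene annotation, and overlapping or antisense genes may therefore share reads. The deposited FPKM was used only to set levels of different genes side by side.

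Counts were tested with edgeR 4.0.16 (limma 3.58.1, R 4.3.3) using TMM scaling, the default filter on low counts, which kept 16319 of 28999 genes and all 10 members, and 1 mean per group in 1 fit of all 12 libraries. The quasi-likelihood test was adjusted by Benjamini-Hochberg over all genes tested, and a gene was called at an adjusted p under 0.05. CPM is the count divided by the TMM-scaled library size, and ± is the SD over 3 libraries. Depth ran from 13919649 to 13953510 counts per library in Trim47-/- after 5-FU and from 15111811 to 15151589 in wild type after 5-FU. In untreated libraries it ran from 20661120 to 20703198 in Trim47-/- and from 14828152 to 14885673 in wild type. Depth thus varied with the group, and it sets the precision of scarce genes such as Clec9a. Within groups, counts differed by more than sampling noise (median chi-square per degree of freedom 1.00 to 1.07, against 0.693 under counting noise). Every library was entered separately, and this excess does not show that the libraries come from separate animals. The members and gene lists were chosen with earlier results of these data known. All 10 members are described, and from each other list at most 3 genes per comparison, those with the smallest p, as well as genes that overlap a member or mark a cell type, some of which were chosen after their values were seen. The 6 genes nearest in pattern had the highest Pearson r among genes averaging 5 CPM or more. Promoter windows come from RefSeq (GRCm38.p6), and overlaps and shared 50-base words from the GENCODE M21 annotation of GRCm38. Alternatives were DESeq2's size factors, the DESeq2 1.42.0 test, no filter, only the libraries compared, the replicate number as a block, calls at 0.01 or at 2-fold and each library left out. The procedure was tested on simulated data. Python 3.11.15, numpy 2.4.6, pandas 2.3.3 and matplotlib 3.10.9 handled numbers and plots.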

Additional observations from a re-analysis of the deposited data

Results flagged for a closer look

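The response to 5-FU differed between genotypes in the interaction test of edgeR (log2 change in Trim47-/- minus that in wild type) for 6 of the 10 genes. Ciita, the class II coactivator, had an interaction of -1.22, from a change of -2.34 in Trim47-/- and -1.13 in wild type, and lay lower after 5-FU in every library of both genotypes. Clec9a had 3.91, from 1.09 in Trim47-/- and -2.82 in wild type, with higher levels in 3 of 3 Trim47-/- libraries and lower levels in 3 of 3 wild-type libraries after 5-FU. Siglech had 1.42, from -0.85 in Trim47-/- and -2.26 in wild type. H2-Aa had 0.34, from -2.16 in Trim47-/- and -2.49 in wild type. H2-DMa had -0.34, from -0.02 in Trim47-/- and 0.32 in wild type. H2-DMb1 had -0.33, from -0.69 in Trim47-/- and -0.36 in wild type. Clec9a rests on 22 and 13 reads over the 3 libraries after 5-FU and on 15 and 86 reads over the 3 untreated libraries, of Trim47-/- and wild type in each pair. It passed the filter on low counts through the untreated wild-type libraries alone, where it was high, so its place among the 6 depended on that group. Over all genes tested, 54.9% were called in this comparison, so the count of 6 of the 10 lies near that share. The calls of H2-Aa, Siglech and H2-DMb1 were lost under some alternatives, with adjusted p in edgeR's test up to 0.119, 0.112 and 0.0617.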

How the results depend on the processing

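Of 838 values of the 10 genes under alternatives, 784 kept their direction and their side of the threshold and 54 did not, 8 of which reversed. The falls of H2-Aa, H2-Ab1, H2-Eb1, Cd74 and Ciita after 5-FU kept their call in both genotypes under every setting of scaling, filter, test and libraries. None of the reversed values was called. Itgax between genotypes after 5-FU was -0.011 with no filter. Leaving out each library gave -0.078 to 0.091 for that difference, -0.138 to 0.13 for H2-Ab1 and -0.239 to 0.034 for Cd74 between untreated genotypes, -0.227 to 0.042 for the interaction of H2-Ab1 and -0.059 to 0.037 for H2-DMa after 5-FU in Trim47-/-. Of these, the -0.239 of Cd74 was called (adjusted p = 0.0211).

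Of the 10 genes, 2 rose after 5-FU in Trim47-/-, and 1 did under the DESeq2 test, with no filter, at 2-fold and at an adjusted p under 0.01. With only the libraries compared 1 rose as well, because Clec9a, at 5 to 8 reads per library there, did not pass the filter and was not tested. The 3 higher interactions became 1 with no filter and at 0.01, and the 3 lower ones 1 at 2-fold and at 0.01. With only the libraries compared, 4 genes in place of 2 were lower between untreated genotypes, and 1 in place of 0 (Cd74) was higher after 5-FU. The 1 gene lower after 5-FU became 0 at 2-fold, the 1 higher in untreated Trim47-/- became 0 at 2-fold and at 0.01, and the 1 that rose in wild type became 0 at 2-fold. Leaving out each library gave 1 to 2 genes rising and 6 to 7 falling after 5-FU in Trim47-/-, 1 and 8 in wild type throughout, 0 to 1 higher and 1 to 2 lower between genotypes after 5-FU, 1 higher and 2 to 3 lower between untreated genotypes, and 1 to 3 higher and 2 to 3 lower interactions. The cause of the other changes was not tested. Over all genes, at least 2-fold changes were fewer: 121 higher and 491 lower between untreated genotypes, 551 and 883 after 5-FU, 467 and 1152 after 5-FU in wild type, 657 and 1526 in Trim47-/-, and 1192 and 1582 in the interaction. At an adjusted p under 0.01, 1615 genes in place of 2873 were higher in untreated Trim47-/-.

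Same-numbered libraries did not deviate together (correlations from -0.109 to 0.093, against -0.076 to 0.099 for different numbers). With the replicate block, 2 genes in place of 1 were lower between genotypes after 5-FU, as H2-DMb1 was added at -0.19 (adjusted p = 0.0496). Low counts limit Clec9a, Siglech and Ciita most.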

Other observations

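Of the 11 genes that drive class II transcription, 4 were higher and none was lower in untreated Trim47-/- than in untreated wild type (median log2 difference 0.19), and 2 were higher and 4 lower after 5-FU (median -0.14). Over all genes tested, 17.6% were higher and 15.4% lower in untreated mice, and 27.2% were higher and 27.6% lower after 5-FU. After 5-FU, Irf2 was lower in Trim47-/- at 40.6 ± 0.793 CPM against 75.0 ± 5.69 CPM in wild type (log2 -0.89, adjusted p = 3.44e-07). Rfxank was lower at 17.5 ± 0.952 CPM in Trim47-/- against 26.7 ± 1.06 CPM in wild type (log2 -0.61, adjusted p = 4.17e-06), and Rfx5, the DNA-binding subunit of RFX, at 54.9 ± 3.09 CPM against 68.6 ± 2.24 CPM (log2 -0.32, adjusted p = 0.000839). H2-Aa, H2-Ab1, H2-Eb1 and Cd74 did not pass in that comparison.

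Markers of plasma cells moved in both directions after 5-FU. Of the 4 plasma cell markers, 2 fell and 1 rose in Trim47-/-, and 3 fell and 1 rose in wild type. Over all genes tested, 30.8% fell and 29.6% rose in Trim47-/-, and 25.4% fell and 25.2% rose in wild type. Xbp1, a factor of secretory cells, rose by log2 0.35 in Trim47-/- (adjusted p = 6.28e-05) and fell by 0.66 in wild type (adjusted p = 5.27e-07), and Sdc1, the CD138 marker of plasma cells, rose by log2 0.50 in wild type (adjusted p = 0.000646) and changed by -0.09 in Trim47-/- without passing (adjusted p = 0.406). The 4 plasma cell markers summed to 192.1 to 235.9 CPM in Trim47-/- after 5-FU, 171.9 to 230.9 CPM in wild type after 5-FU, 313.3 to 501.9 CPM in untreated Trim47-/- and 516.2 to 536.5 CPM in untreated wild type. Jchain, which joins secreted immunoglobulin, fell by 2.47 on the log2 scale in Trim47-/- (adjusted p = 0.000139) and by 2.22 in wild type (adjusted p = 0.000362). Of the 3 T cell markers tested, 2 fell and none rose in each genotype, beside the same shares of all genes tested. The T cell coreceptor gene Cd4, which plasmacytoid dendritic cells of the mouse can also express, fell by 2.73 in Trim47-/- (adjusted p = 2.29e-07) and by 2.41 in wild type (adjusted p = 1.28e-06). Clec10a, a lectin of type 2 conventional dendritic cells and macrophages, went the other way, with a log2 rise of 1.79 in Trim47-/- (adjusted p = 5.37e-06) and 2.41 in wild type (adjusted p = 6.59e-07). The part of any of these cell types in the results above was not tested.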
